A study of Homo sapiens with 14 samples.

Results

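The 10 genes here encode transcription factors of lung fibroblast identity, and they were followed through all RNA-seq groups of the series. They were taken from a list of T-box, FOXF and mesenchymal factors: TBX2, TBX3, TBX4, TBX5, FOXF1, FOXF2, TCF21, TWIST1, TWIST2 and PRRX1. The list was chosen with earlier results of these data known. All 10 had a row in each of the 3 kinds of deposited table, which list 57791, 54628 and 38716 gene symbols. The cells were IMR90, human fetal lung fibroblasts of finite lifespan that are widely used in culture, grown close to confluence before poly(A) RNA was sequenced. I79 and I10, read here as isolates of IMR90, were each sampled young (low passage, dividing) and old (passaged until replicative senescence, the permanent arrest that follows long culture). Low-passage I79 cells were sampled too after exposure to ICM, short for inflachromene, a compound that binds HMGB1 and HMGB2 on chromatin, at a dose and duration that the sample labels do not state. The remaining groups were wild type (WT) cells and cells with an HMGB2 knockdown (HMGB2 KD) made by siRNA, for which the labels name neither the isolate nor any control siRNA. WT, HMGB2 KD and I79 ICM had 2 libraries each, whereas each old or young group had 1 table for the 2 replicates in its titles, treated as a value of the authors that has neither an SD nor an n. All groups are IMR90, so the results describe IMR90 cultures and not lung tissue.

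T-box proteins bind DNA through a conserved T domain, and TBX2, TBX3, TBX4 and TBX5 are the T-box genes active in the mesenchyme of the developing lung, where they act with FGF10 on branching. FOXF1 and FOXF2 are forkhead factors downstream of Hedgehog signals from the epithelium, and FOXF1 is needed for normal lung vessels. TCF21, TWIST1 and TWIST2 are basic helix-loop-helix factors that bind E-box motifs with partners such as TCF3, TCF4 and TCF12, while PRRX1 is a paired-type homeobox factor of mesenchymal cells. TCF21 marks lipid-rich lung fibroblasts, and the TWIST and PRRX1 genes are known for holding cells in a mesenchymal state.

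The libraries were read first for what could touch these genes. Matched gene counts ranged from 1.46e+07 to 2.01e+07 in the old and young tables, from 33561766 to 41168932 in WT and HMGB2 KD, and from 1.10e+07 to 1.33e+07 in I79 ICM. HMGB2, the knockdown target, had 27.1 and 27.3 CPM (counts per 1000000 counts) in WT libraries and 3.22 and 3.64 CPM in knockdown libraries. CDKN1A, the gene of the cell cycle inhibitor p21, stood at 354 and 341 CPM in the young tables and at 2349 and 1606 CPM in the old tables of I79 and I10. Between 13 and 14 of 14 fibroblast markers reached 1 CPM in every column. Epithelial markers summed to between 0.429 and 8.50 CPM with NKX2-1, SFTPC and SCGB1A1 at 0, endothelial markers to between 5.12 and 32.3 CPM with CDH5 at 0, immune markers to between 21.6 and 158 CPM with CD3E at 0, and mesothelial markers to between 11.3 and 33.0 CPM with WT1 at 0. Nearly all of the immune sum was CD68, which is also a lysosomal gene.

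The levels of the factors were compared with each other only per length, as TPM in the old and young tables and as counts per kilobase of merged exons scaled to a sum of 1000000 elsewhere. FOXF1 (chromosome 16, 86544133 to 86549028 of GRCh37, plus strand) had the highest per-length level of the 10 in all 10 columns, from 96.0 in I10 old to 836 in a WT library, and ranked between 136 and 1302 among 18715 coding genes. TBX4 (chromosome 17, 59529765 to 59562471, plus strand) had the lowest per-length level wherever TWIST2 was above 0, from 0.335 in an I79 ICM library to 9.23 in I10 young. In WT the order from the top was FOXF1 (794 and 836), TBX2 (448 and 462), TCF21 (431 and 403), TBX3 (215 and 199), TWIST1 (81.6 and 61.6), FOXF2 (68.4 and 75.6), TBX5 (32.1 and 37.3), PRRX1 (24.5 and 27.5) and TBX4 (0.33 and 0.39). TWIST1 and FOXF2 were the only neighbours in that order whose 2 libraries overlapped. In I79 young the order behind FOXF1 (121) was TCF21 (57.8), TBX2 (51.5), TBX3 (51.1), PRRX1 (49.0), FOXF2 (20.2), TWIST1 (18.7), TWIST2 (18.3), TBX5 (16.8) and TBX4 (6.18), with 1 table and so no spread. In I79 ICM the overlapping neighbours were FOXF2 (40.8 and 41.1) with TWIST2 (37.5 and 41.6), and TWIST1 (29.0 and 26.0) with TBX3 (27.8 and 28.0).

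**Figure D1:**
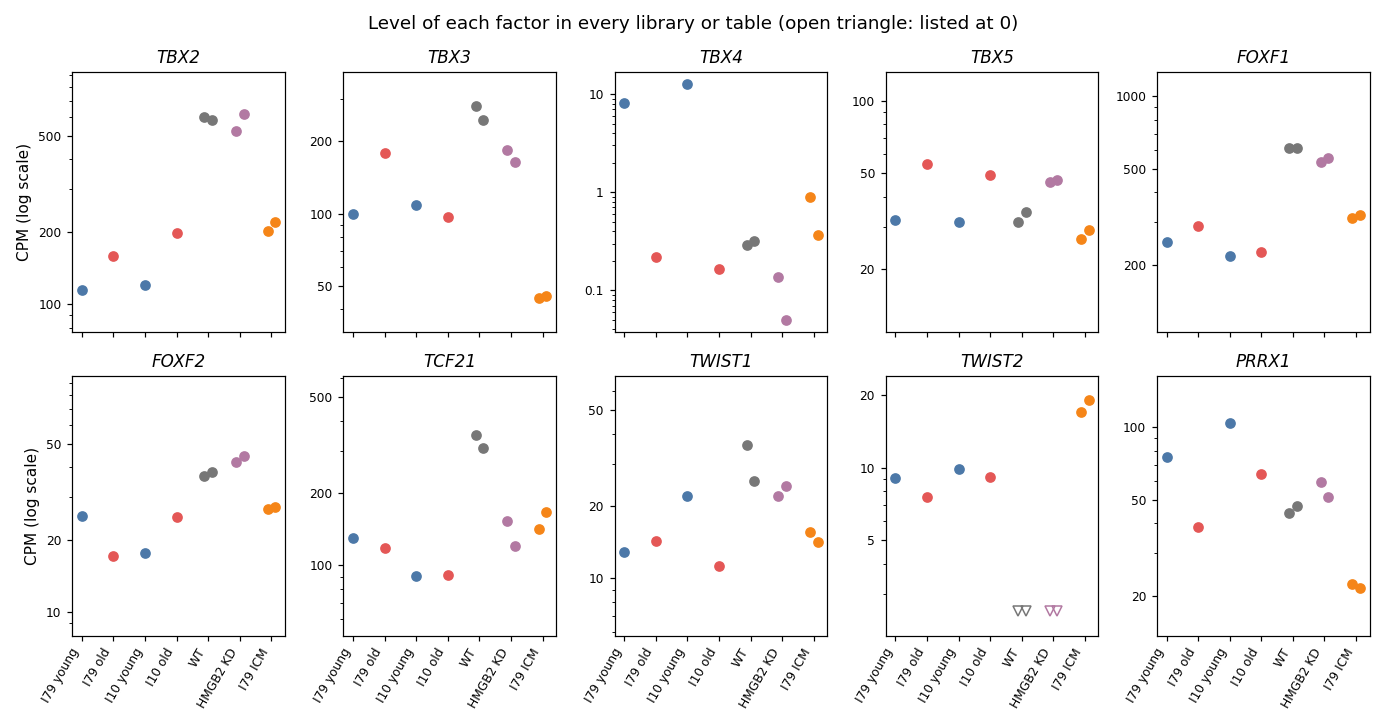
Level of each factor in CPM (vertical axis, log scale with its own range per panel) in the 4 old and young tables, the 2 WT, 2 HMGB2 KD and 2 I79 ICM libraries (points). TBX4 stands at 8.13 and 12.8 CPM in the young tables and below 1 CPM in every other column, and TWIST2 is listed at 0 in WT and HMGB2 KD (open triangles).

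TWIST2 (chromosome 2, 239756673 to 239832230, plus strand) was listed at 0 in all 4 WT and HMGB2 KD libraries, while it held 140 to 190 estimated reads in the old and young tables and 227 and 210 reads in I79 ICM. EIF4A1, EEF1B2 and CLIC1, which every cell uses, were also listed at 0 in these 4 libraries. Of 8557 genes with at least 100 reads in every old, young and ICM column, 143 (1.67%) were at 0 there, TWIST2 among them. No level of TWIST2 is therefore given for WT or HMGB2 KD, and it could not be tested in that comparison.

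TBX4, TCF21 and PRRX1 were the factors called in a comparison described next, and for the first 2 the bases before the start site are shown. Windows are the 250 bases upstream of a RefSeq start site on GRCh38.p14, plus strand. The TCF21 window is chr6:133888863-133889112, and 208 bases of the TBX4 window are printed, chr17:61456238-61456445, since its last 42 bases are also 5′ UTR of another TBX4 transcript. Capitals mark each CG dinucleotide and, in TBX4, the E-box CACGTG, the kind of motif that basic helix-loop-helix factors bind.
TBX4: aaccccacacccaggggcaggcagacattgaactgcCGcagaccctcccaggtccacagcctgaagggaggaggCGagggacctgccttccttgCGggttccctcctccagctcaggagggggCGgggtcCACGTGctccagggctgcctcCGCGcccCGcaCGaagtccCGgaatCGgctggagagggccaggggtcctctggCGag
TCF21: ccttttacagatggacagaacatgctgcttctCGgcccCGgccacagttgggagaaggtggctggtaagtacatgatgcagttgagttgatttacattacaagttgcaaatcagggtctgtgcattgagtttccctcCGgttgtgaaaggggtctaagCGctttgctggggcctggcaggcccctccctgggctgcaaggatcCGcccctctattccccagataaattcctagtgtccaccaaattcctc
The TCF21 site is the first base of the gene, where TCF21-202 begins. The TBX4 site lies 4066 bases inside the gene, and no annotated TBX4 transcript begins at that base. TBX4-208, with 67.1% and 68.0% of young TBX4 reads in I79 and I10, begins upstream of the printed window, whereas TBX4-201, with 22.8% and 24.4%, begins just after it. The TCF21 window lies wholly within exons of TARID, an RNA of the opposite strand. The PRRX1 site, the first base of PRRX1-201, lies 1363 bases inside the gene, and its window, all of it 5′ UTR of PRRX1-202, is not printed. Both strands were searched for the E-box CACGTG, another E-box CATATG, the forkhead motif TGTTTAC, its shorter core TAAACA (which the reverse complement of the longer motif contains) and the T-box motif GGTGTGA. The TBX4 window held CACGTG at position -120, as did 6.34% of 35116 windows of the same length, and the TCF21 and PRRX1 windows held none of the 5 motifs. Over the full 250 bases, the 42 of TBX4 that are not printed included, CG dinucleotides numbered 15 in TBX4, 5 in TCF21 and 6 in PRRX1. The median over all windows was 11, and FOXF2 had 20 and TWIST2 26. Windows were matched for 6 of the 10 factors, and TBX2, TBX3, FOXF1 and TWIST1 had none.

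HMGB2 is lost from nuclei at senescence, and the knockdown asks whether lowering HMGB2 moves these genes in the WT cells used. In WT, HMGB2 stood at 27.1 and 27.3 CPM and CDKN1A at 1163 and 1196 CPM. The young tables, counted in another way, had 122 and 141 CPM of HMGB2 and 354 and 341 CPM of CDKN1A. Whether WT cells resembled young cells was not tested. TCF21 was the factor that fell. The WT libraries held 347 and 308 CPM (11894 and 11481 counts), the knockdown libraries 153 and 120 CPM (5607 and 4787 counts). Both knockdown libraries lay far below both WT libraries. Group means were 327 ± 28.2 and 137 ± 23.4 CPM (SD, n = 2). The log2 fold change of -1.26 had an SE of 0.15 and, in the quasi-likelihood test of edgeR, an adjusted p of 0.00018. TCF21, on chromosome 6 from 134210251 to 134216691 (plus strand), was called here and in all 9 other fits tried, with log2 fold changes from -1.46 to -1.09. To be called, a gene needed both an adjusted p below 0.01 and a log2 fold change beyond 0.6 in size, and 5.20% of 15338 tested genes met this (2.86% higher and 2.34% lower), beside 1 of the 9 factors tested. The labels do not say whether libraries came from separate cultures, so p-values measure the spread between these libraries, which may be technical. They name no control siRNA either, so siRNA treatment and loss of HMGB2 cannot be told apart in this comparison.

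TBX3 and TBX5, which lie 262 kb apart on chromosome 12 and are T-box factors of the same mesenchyme, differed in opposite directions without being called. TBX3 (115108060 to 115121980, minus strand) held 281 and 246 CPM in the WT libraries, and 183 and 163 CPM after knockdown, with no overlap. Its log2 fold change of -0.60 (SE 0.14) came with an edgeR adjusted p of 0.012. TBX3 was called by DESeq2 (DESeq2 adjusted p 0.00023). It was also called without the low-count filter (edgeR adjusted p 0.00054) and with a replicate block (edgeR adjusted p 0.00023). Over all 9 other fits its log2 fold change ran from -0.70 to -0.50, and the rest of these fits did not call it. TBX5 (114791716 to 114846247, minus strand) held 31.3 and 34.4 CPM in the WT libraries, and 46.1 and 46.7 CPM after knockdown. The knockdown libraries were both above the WT libraries, by 0.50 on the log2 scale (SE 0.13, edgeR adjusted p 0.024), short of the fold change required. Both T-box genes overlap an antisense RNA, TBX3-AS1 and TBX5-AS1, and use of strand in the counting is not stated, so reads of the 2 partners cannot be told apart.

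TBX2 and TBX4 are neighbours on chromosome 17, 42.9 kb apart. TBX2 (59477204 to 59486827, plus strand) had WT values of 597 and 583 CPM and knockdown values of 527 and 619 CPM, which overlapped (log2 fold change -0.04, SE 0.14). TBX4 was close to the limit of counting, with 10 and 12 counts in WT and 5 and 2 in HMGB2 KD. The summed counts of 22 and 7 gave a log2 ratio of -1.75 with a 95% counting interval from -3.22 to -0.47, while edgeR gave -1.70 (SE 0.90, adjusted p 0.28). The counting interval leaves out sampling between cultures, and by edgeR a difference in TBX4 was not detectable at this depth.

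Levels of the remaining factors did not pass the test either. FOXF1 stood at 613 and 611 CPM in WT against 534 and 553 CPM after knockdown (log2 fold change -0.17, SE 0.14). FOXF2 (chromosome 6, 1389811 to 1395838) stood at 36.7 and 38.4 against 41.9 and 44.7 CPM (0.20, SE 0.13). TWIST1 (chromosome 7, 19060614 to 19157259, minus strand) stood at 35.7 and 25.5 against 22.0 and 24.1 CPM (-0.41, SE 0.16). PRRX1 (chromosome 1, 170631869 to 170708562) stood at 44.2 and 47.0 against 59.4 and 51.4 CPM (0.28, SE 0.13). The edgeR adjusted p values of these 4 ranged from 0.14 to 0.51. There was no overlap between WT and knockdown libraries in 8 of the 9 factors tested, beside 53.8% of all tested genes. Summed smooth muscle and pericyte markers stood at 867 and 919 CPM in the WT libraries, and at 1455 and 1522 CPM after knockdown, with 5 of 7 at or above 1 CPM in each library and MYH11 listed at 0. Summed fibroblast markers stood at 30710 and 39564 CPM in the WT libraries, and at 48232 and 59141 CPM after knockdown. Single markers of both lists did not all go the way of the sums. COL1A1 was at 4993 and 7924 against 11154 and 14686 CPM, while COL3A1 was at 2811 and 3521 against 1331 and 1465 CPM. ACTA2 was at 105 and 201 against 462 and 628 CPM, while RGS5 overlapped, at 591 and 446 against 487 and 250 CPM. The part of these differences in the fall of TCF21 was not tested, and in bulk RNA fewer cells of a kind and less RNA per cell cannot be told apart.

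**Figure D2:**
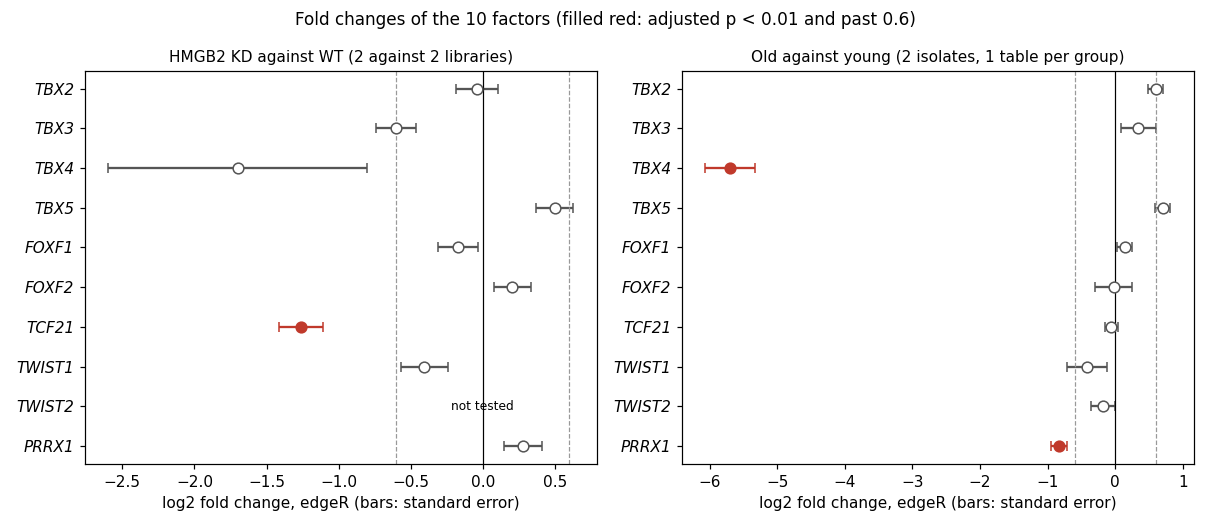
Log2 fold change of each factor (horizontal axis, bars the standard error) for HMGB2 KD against WT on the left and old against young on the right, with dashed lines at 0.6 in either direction. Filled red points were called, TCF21 (-1.26) on the left and TBX4 (-5.70) and PRRX1 (-0.83) on the right.

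Old against young asks what replicative senescence does to the same genes, with the 2 isolates as replicates and 1 residual degree of freedom. TBX4 and PRRX1 fell. TBX4 stood at 8.13 CPM in I79 young and 0.217 CPM in I79 old (127 and 4 estimated reads), and at 12.8 CPM in I10 young and 0.166 CPM in I10 old (245 and 3.01 estimated reads). Both old tables were near 0 and both young tables well above. The ratio of young to old was 37.5 in I79 (95% counting interval 14.3 to 140) and 77.1 in I10 (26.1 to 376), and jointly the log2 fold change was -5.70, with an SE of 0.37 and an edgeR adjusted p of 0.0036. The size rests on 4 and 3.01 reads in the old tables, and over the other fits it ranged from -5.73 to -4.14. TBX4 was called in all of them.

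PRRX1, which regulates mesenchymal programmes in limb and lung, stood at 75.2 CPM in I79 young and 38.4 CPM in I79 old, and at 104 CPM in I10 young and 63.8 CPM in I10 old. Old was below young in both isolates and all old values were below all young values. The log2 fold change was -0.83 (SE 0.11) at an edgeR adjusted p of 0.0099, close to the threshold. Without the isolate as a covariate the edgeR adjusted p was 0.081 and the call was lost, the highest value over 5 other fits whose lowest was 2.70e-07. The isolates themselves differed, with I10 above I79 by 0.46 on the log2 scale when young and 0.73 when old. These 2 calls of 10 factors, both lower, stand beside 9.55% of 15117 tested genes called (5.74% higher and 3.80% lower).

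TBX5 and TBX2 stood higher in old cells of both isolates without being called. TBX5 had 32.0 CPM (I79) and 31.5 CPM (I10) when young, and 54.4 and 49.2 CPM when old (0.70 higher on the log2 scale, SE 0.11, edgeR adjusted p 0.013). TBX2 had 115 and 120 CPM young against 159 and 198 CPM old (0.60, SE 0.11, edgeR adjusted p 0.021). All old values lay above all young values for both genes, and together with TBX4 and PRRX1 these made 4 of 10 factors without overlap, beside 74.0% of tested genes. TBX5 was called when no low-count filter was applied and without the isolate covariate, and TBX2 by DESeq2. The antisense gene TBX2-AS1 had 5.44 and 6.47 CPM young against 8.84 and 13.04 CPM old, 0.86 higher on the log2 scale (SE 0.19, edgeR adjusted p 0.030).

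The other 6 factors had no common shift. FOXF1 had 248 CPM (I79) and 218 CPM (I10) when young, and 290 and 226 CPM when old (log2 fold change 0.14, SE 0.11). TWIST2 had 9.09 and 9.91 CPM young against 7.59 and 9.17 CPM old (-0.18, SE 0.18). TCF21, the gene that fell after HMGB2 knockdown, had 129 and 90.4 CPM young against 119 and 91.3 CPM old (-0.06, SE 0.10), so that its isolates differed by more than its ages. HMGB2 RNA itself was also low in old cells, with 122 CPM young and 38.2 old in I79, 141 young and 46.3 old in I10. The old tables also carried more CD68, at 158 and 84.5 CPM against 21.4 and 23.2 CPM in the young tables, whose part in the values of the factors was not tested.

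TBX3, FOXF2 and TWIST1 had ratios of opposite sign in the 2 isolates. TBX3 stood in I79 at 99.7 CPM young and 179 CPM old, higher by 0.85 on the log2 scale (95% counting interval 0.76 to 0.93), and stood in I10 at 109 and 96.8 CPM, a log2 ratio of -0.17 (-0.26 to -0.07). FOXF2 stood in I79 at 25.1 and 17.2 CPM (-0.55, from -0.76 to -0.33) and in I10 at 17.6 and 24.8 CPM (0.50, from 0.29 to 0.71). The FOXF2 reads of I10 old (449.304) were not a whole number, and their division from FOXF1 reads is an estimate that the interval does not cover. TWIST1 stood in I79 at 12.9 and 14.3 CPM (0.15, from -0.12 to 0.42) and in I10 at 22.0 and 11.3 CPM (-0.97, from -1.21 to -0.72). The intervals of each of these genes did not overlap between isolates. They cover counting error only, since each group had 1 table and the reads carry no molecular identifiers. Ratios past 0.6 in either direction were found for 4 factors in I79 and 5 in I10, beside 41.3% and 37.4% of tested genes.

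**Figure D3:**
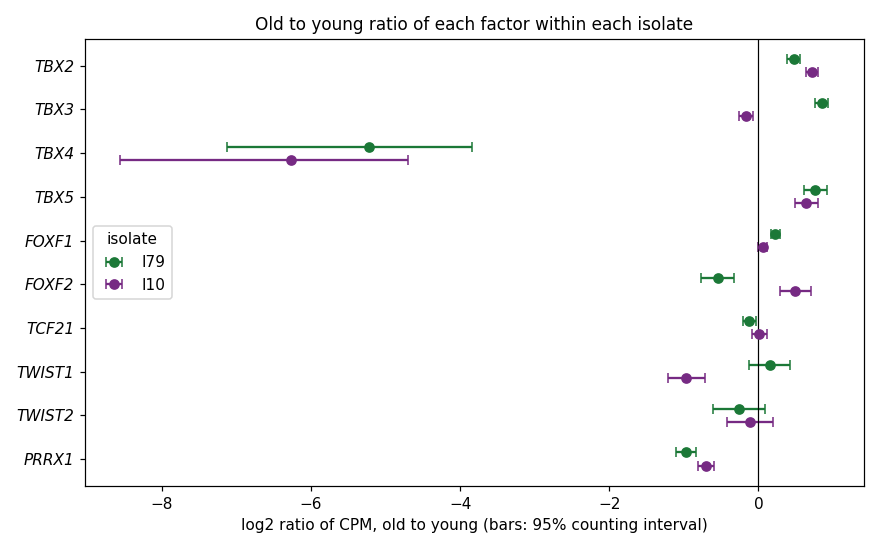
Log2 ratio of old to young CPM (horizontal axis) of each factor in isolate I79 (green) and isolate I10 (purple), with 95% counting intervals as bars. TBX3, FOXF2 and TWIST1 lie on opposite sides of 0 in the 2 isolates, whereas TBX4 lies at -5.23 and -6.27.

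The ICM libraries were set against the I79 young table to describe the same genes after treatment, with no test because the 2 kinds of table were counted in different ways. WT libraries, which carry no ICM label, were set against the same table by the same steps. WT was counted in yet another way and its isolate is not labelled, so counting, isolate and culture cannot be told apart in either ratio. PRRX1 had 23.0 and 22.2 CPM over shared genes in I79 ICM against 85.7 in I79 young, a log2 ratio of -1.92 ± 0.03 (SD, n = 2), beside -0.80 for WT. Each SD of these ratios is the spread between the 2 I79 ICM libraries alone, since I79 young had 1 table and no spread. TBX3 had 46.1 and 46.9 CPM against 114, a log2 ratio of -1.29 ± 0.02, beside 1.33 for WT in the opposite direction. TBX4 had 0.932 and 0.376 CPM (12 and 4 reads) against 9.27, a log2 ratio of -3.59 ± 0.67, beside -4.58 for WT. TBX4 was low in WT cells too, in which CDKN1A stood at 1163 and 1196 CPM.

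TBX2 and TWIST2 had higher values in I79 ICM than in I79 young. TBX2 had 209 and 226 CPM against 131, a log2 ratio of 0.73 ± 0.08, below the 2.29 of WT. TWIST2 had 17.6 and 19.8 CPM against 10.4, a ratio of 0.84 ± 0.12, with no WT value to compare. TBX5 (-0.34), FOXF1 (0.21), FOXF2 (-0.03), TCF21 (0.11) and TWIST1 (0.06) had log2 ratios within 0.6, beside WT ratios of -0.04, 1.23, 0.51, 1.26 and 1.15. In all, 5 of the 10 factors were past 0.6 in I79 ICM, 2 higher and 3 lower, beside 60.7% of 14234 genes (31.1% higher and 29.6% lower). For WT it was 7 of the 9 factors other than TWIST2, 5 higher and 2 lower, beside 44.2% of 14229 genes (20.6% higher and 23.6% lower). Summed smooth muscle and pericyte markers were at 336 and 323 CPM in I79 ICM and 1157 CPM in I79 young. Summed fibroblast markers were at 15050 and 15464 CPM against 45006 CPM. Single markers of both lists differed in direction. COL6A3, a collagen VI chain, was at 402 and 463 against 7927 CPM, while THY1 was at 577 and 583 against 502 CPM. Among smooth muscle and pericyte markers, ACTA2 was at 87.9 and 88.6 against 523 CPM, and DES at 19.9 and 19.2 against 5.76 CPM. The part of these differences in the ratios was not tested.

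**Figure D4:**
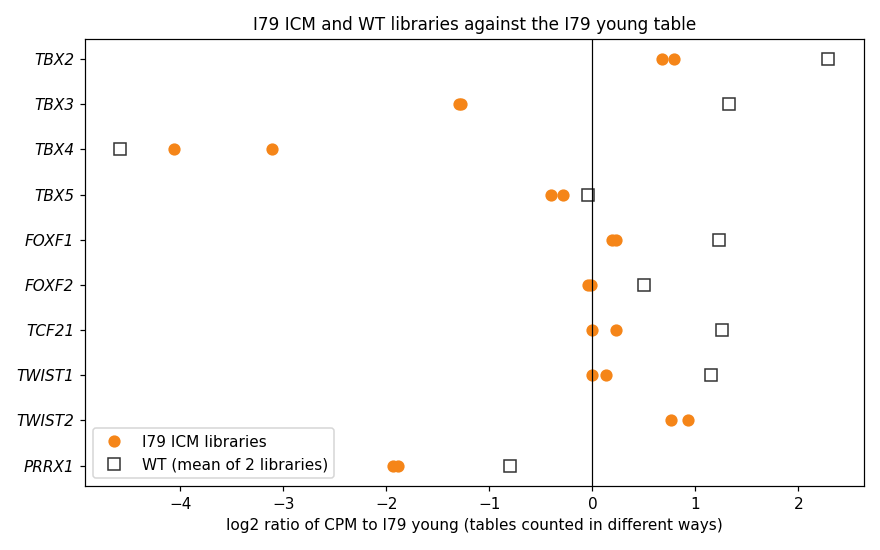
Log2 ratio of CPM to the I79 young table (horizontal axis) for each of the 2 I79 ICM libraries (orange points) and for the mean of the 2 WT libraries (open squares; none for TWIST2). TBX3 lies at -1.29 in I79 ICM and 1.33 in WT, and PRRX1 at -1.92 and -0.80.

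The region of the transcript that held the reads differed between the factors in the ICM libraries. PRRX1 had 77.0% and 70.3% of its reads in the 3′ UTR, beside 25.3% and 24.2% over all genes. With coding and noncoding reads alone in I79 ICM, and all reads kept in I79 young, its log2 ratio was -3.30 in place of -1.92. Only the ICM side was restricted, so such a shift follows the region share and does not measure a larger fall. TCF21 had 40.7% and 39.8% of its reads in the 3′ UTR and 37.3% and 37.5% in the coding region, and its ratio went from 0.11 to -0.68 by the same change. TBX2 lay at the other end, with 77.8% and 79.8% of its reads in the coding region, beside 61.1% and 61.9% over all genes.

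**Figure D5:**
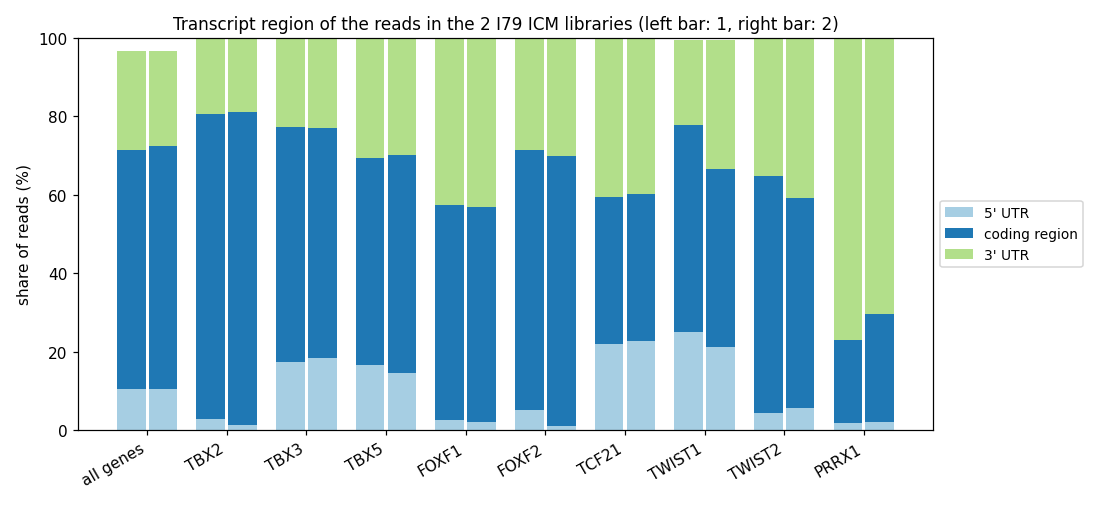
Share of reads (vertical axis, percent) in the 5′ UTR, coding region and 3′ UTR for all genes and 9 factors, with 1 bar for each of the 2 I79 ICM libraries; TBX4 had 12 and 4 reads and is left out. The 3′ UTR takes 77.0% and 70.3% of PRRX1 reads against 25.3% and 24.2% over all genes.

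The old and young tables divide reads between transcripts, by estimate. The TBX4 reads of young cells were mostly on TBX4-208, the longest coding transcript, with 85.3 of 127 reads in I79 and 167 of 245 in I10, and that transcript was listed at 0 in both old tables. PRRX1-201 held 77.2% and 77.8% of PRRX1 reads in the young tables of I79 and I10, and a larger share in both old tables, 78.4% in that of I79. TBX3-202 held 69.6% of TBX3 reads in I79 young and 80.0% in I79 old, and 68.1% and 74.7% in I10. TCF21-202, the longer of 2 transcripts with the same coding length of 537 bases, held 63.6% and 63.5% of TCF21 reads in the young tables and 71.8% and 70.8% in the old tables of I79 and I10. Between 34.6% and 37.7% of TBX2 reads were assigned to TBX2-203, a transcript with a retained intron. These shares have no replicate within a group.

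The families of the 10 factors were followed through lists of related genes, chosen with earlier results of these data known. Over all genes tested, 5.20% were called after knockdown and 9.55% in old cells, the shares to set beside the counts of each list. Of 13 other T-box genes, 2 passed the filter in the knockdown comparison and 3 in old against young, and neither edgeR nor DESeq2 called any. At an unadjusted p under 0.05 there were 0 by either tool after knockdown, and in old cells 2 by edgeR (MGA and TBX19) and 1 by DESeq2 (MGA). The share of all tested genes under this p is not given here, so such counts are not read as a response. Of 22 other forkhead genes, 19 were tested after knockdown, 2 rose and 1 fell. FOXC2 and FOXL1, which lie beside FOXF1 on chromosome 16, had log2 fold changes of 1.44 (SE 0.25) and 0.70 (SE 0.14) while FOXF1 was not called, and FOXP2 had -1.24 (SE 0.25). In old cells 14 were tested and FOXM1, a factor of dividing cells, fell by 2.40 (SE 0.25). Median log2 fold changes over the forkhead list were 0.23 after knockdown and 0.10 in old cells, beside 0.00 and -0.01 over all genes tested.

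Partners and inhibitors of the helix-loop-helix factors held 0 calls by edgeR and 0 by DESeq2 among 9 genes tested after knockdown. Their median log2 fold change was -0.31. By either tool 5 had an unadjusted p under 0.05, again with no share over all genes to set beside it. In old cells 2 of 8 were called, both lower (3 by DESeq2). TCF12 had 444 CPM young and 114 old in I79, 425 young and 150 old in I10 (-1.73 on the log2 scale, SE 0.16), and TCF4 had 103, 57.9, 90.6 and 55.3 CPM in the same order (-0.77, SE 0.10). Both are partners that TWIST1, TWIST2 and TCF21 can bind. The median over these 8 was -0.74 in old cells. Of 26 other mesenchymal factors tested after knockdown, GATA6 (1.39, SE 0.18) and RUNX1 (0.66, SE 0.13) rose. Of 25 tested in old cells, ZEB1 rose by 1.04 (SE 0.11), while HOXA5 (-1.72, SE 0.17), GLI3 (-1.21, SE 0.12) and GLI2 (-1.15, SE 0.12) fell, the GLI genes being the transcription factors of the Hedgehog pathway. Medians of this list were 0.20 after knockdown and -0.19 in old cells.

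Among 18 tested signals and receptors of lung mesenchyme, HHIP (1.42, SE 0.19) and PDGFRB (1.06, SE 0.17) were higher after knockdown. HGF (-1.18, SE 0.17) and BMP4 (-1.13, SE 0.14) were lower, and the median was 0.00. Old cells had higher WNT2B (1.62, SE 0.16) and VEGFA (0.85, SE 0.12) and lower RSPO3, a Wnt agonist with 2.24 CPM young and 0.0542 old in I79, 2.35 young and 0.0553 old in I10, and with a median of 0.09. The edgeR adjusted p of every gene named as called in these lists was under 0.01.

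Genes beside the called factors were also read. EYA4, 357 kb from TCF21, held 99.0 and 95.5 CPM in the WT libraries against 52.4 and 36.2 CPM after knockdown, lower by a log2 fold change of -1.14 (SE 0.16, edgeR adjusted p 0.0005), and TARID, the antisense gene that overlaps TCF21, had 1.29 and 1.29 against 0.273 and 1.23 CPM (-0.76, SE 0.58). BCAS3, near TBX4, was called after knockdown (log2 fold change 0.63, edgeR adjusted p 0.0094) and was not called in old cells (0.14). GORAB and KIFAP3, near PRRX1, had -0.11 and 0.30 in old cells and were not called. HDAC9, near TWIST1, was the called neighbour in both comparisons, with 1.37 (SE 0.21) after knockdown and 4.32 (SE 0.40) in old cells. TWIST1 itself was not called in either. The gap of 18.6 kb between them reaches to 19060614, the far end of TWIST1-203, which held 0% to 5.90% of TWIST1 reads in the old and young tables. TWIST1-201, with 85.1% to 92.7% of these reads, lies from 19155091 to 19157259, farther from HDAC9. Of 17 neighbour genes tested after knockdown 4 rose and 1 fell (29.4% called, beside 5.20% over all genes), with a median of 0.23. Of 14 tested in old cells 1 rose (7.14% called, beside 9.55% over all genes), with a median of 0.27. The list was chosen with earlier results of these data known, and FOXC2 and FOXL1 are counted in the forkhead list too. The shares are therefore not read as a response of neighbour genes.

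The genes whose pattern was most like that of a called factor were found by Euclidean distance over the 8 log2 CPM values of the old, young, WT and HMGB2 KD columns, among 12776 genes tested in both fits. Nearest to TBX4 were CYP1B1 (distance 1.21) and EFHC2 (1.36), with log2 fold changes of -6.17 and -5.35 in old cells. Nearest to TCF21 were MMD (0.33) and LINC01081 (0.40), with -1.07 and -1.12 after knockdown, and LINC01081 lies 209 kb from FOXF1. Nearest to PRRX1 were RNASEH2A (0.33) and PSMC3IP (0.34), with -0.82 and -0.84 in old cells. The columns come from 2 kinds of table, each centred on its own mean.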

How the data were processed

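Poly(A) RNA-seq of IMR90 was analysed from gene and transcript tables. Raw counts per gene were deposited by the authors for the WT and HMGB2 KD libraries (summary rows, 16.9% to 18.0% of each total, left out). The processing notes of the submitters name STAR 2.6.0c, featureCounts, DESeq2, deepTools and GRCh37, but the tables end with summary rows of another counter, so counter and strand are not given in the sources used here. For old and young cells 1 table per group was deposited, with estimated counts and TPM per transcript. For I79 ICM the authors deposited expected counts per gene and transcript region. A deposited table of the comparison of HMGB2 KD with WT, with fold changes and p-values, was not used.

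Estimated counts were summed per gene through GENCODE 44 on GRCh37 (97.2% to 97.4% of reads matched) and rounded. FOXF2 includes ENST00000259806, which this annotation lacks: of 4791 unmatched transcripts, 817 had fractional reads in the 3 tables used, and only this one completed the listed FOXF2 transcript to whole reads in all 3 (within 0.0015 reads). In the table left out, I10 old, the sum was not whole (449.304 reads). It was whole, at 4543, with the FOXF1 reads added, so the division between FOXF1 and FOXF2 there is an estimate. CPM were TMM-scaled in tested tables and plain in I79 ICM. Tests were made with edgeR 4.0.16 in R 4.3.3 (quasi-likelihood, filterByExpr, Benjamini-Hochberg over all genes) and tried with DESeq2 1.42.0, and tested on simulated counts first. Tables were compared across kinds over 24638 shared genes with a prior count of 2, for genes with at least 10 reads, and never tested. Intervals are 95% exact Clopper-Pearson intervals for counting error only. Replicates differed beyond sampling noise, with a chi-square of 24.7 (WT), 37.6 (HMGB2 KD) and 2.10 (I79 ICM) per degree of freedom. The factors and gene lists were chosen with earlier results of these data known. Named genes were all 10 factors, called genes with the 3 largest rises and falls per list, neighbours of called factors, and the 2 genes nearest to each called factor. HDAC9, FOXC2 and FOXL1 fall under the list rule. MGA and TBX19 were named after their values were seen. Of the lists, 1 gene is not reported here. Sequences are from RefSeq.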

Additional observations from a re-analysis of the deposited data

Results flagged for a closer look

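Old and young tables differed in direction between I79 and I10 for 4 of the 10 factors, while 6 had the same sign in both. The difference of the log2 ratios, I79 minus I10, was 1.01 for TBX3, -1.04 for FOXF2, 1.11 for TWIST1 and -0.14 for TCF21. These differences were not tested, since each isolate has 1 table per group. For TCF21 the 95% counting interval of I10 (-0.08 to 0.11) includes 0 and overlaps that of I79 (-0.21 to -0.04).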

How the results depend on the processing

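After HMGB2 knockdown TCF21 was called in all 10 fits. TBX3 joined it, giving 2 called factors in place of 1, with no filter on low counts, by DESeq2, with a replicate block and at an adjusted p under 0.05. The block moved the genes called from 797 to 1243, and leaving out each library gave 312 (without HMGB2 KD replicate 2) to 999. Deviations of the 2 same-numbered pairs correlated at 0.17, so the numbers were not taken as pairs. TBX2 ranged from -0.16 to 0.059 when each library was left out, 0.059 without HMGB2 KD replicate 1. In old against young 1443 genes were called, 4251 with no filter, 2165 by DESeq2 and 3859 at an adjusted p under 0.05. Without isolate I79 the log2 ratios of TBX3, FOXF2 and TCF21 were -0.17, 0.50 and 0.014, and without I10 that of TWIST1 was 0.15. Against WT in place of I79 young, I79 ICM had log2 ratios of -1.56 for TBX2 and 1.00 for TBX4, both of opposite sign, and of -1.02 for FOXF1, -1.15 for TCF21 and -1.08 for TWIST1, which were above 0 and within 0.6 against I79 young. The cause of these changes was not tested. FOXF2 from its listed transcript alone, an alternative added after seeing the data, held 5.28 to 40.8 reads and did not pass the filter, so it gave no value.

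Limits: 1 residual degree of freedom in old against young, 2 libraries a group elsewhere, 2 to 12 reads behind the low TBX4 values, and tables counted in 3 ways.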

Other observations

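Between young tables of the 2 isolates, TBX4 (log2 ratio of I10 to I79 0.65, 95% counting interval 0.34 to 0.97) and TWIST1 (0.77, from 0.53 to 1.02) were the factors past 0.6. Between old tables these were TBX3 (-0.89, from -0.97 to -0.81) and PRRX1 (0.73, from 0.60 to 0.87). FENDRR, the RNA that starts 1.43 kb from FOXF1, had 191 and 192 CPM in I79 ICM, 366 in I79 young and 347 in I79 old, while FOXF1 had 313 and 321, 248 and 290 CPM. The ICM libraries were counted and scaled in another way than the old and young tables, and these differences were not tested.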
